A study of Schizosaccharomyces pombe with 8 samples.

Results

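The whole-cell RNA of 2 fission yeast strains was compared, one carrying TAP-tagged and the other GFP-tagged Mmi1. The libraries were chosen by their labels, as whole-cell extracts (WCE), the input RNA taken before any immunoprecipitation. They are 4 of the 8 libraries of the series, 2 from each strain. The study was designed to find RNAs held by Mmi1 and Mei2 together, and used the GFP-Mmi1 strain as the negative control of the purification. Both strains were Schizosaccharomyces pombe, one carrying kanMX::Pnmt41-TAP-Mmi1 and the other kanMX::Pnmt41-GFP-Mmi1, each combined with natMX::Pnmt1-3xFLAG-Mei2. In both, the thiamine-repressible promoters thus drove the tagged Mmi1 and an overexpressed FLAG-Mei2. TAP is a tandem affinity purification tag and GFP is green fluorescent protein. Per the labels, both strains were in exponential phase, grown for 2 days at 30 °C in minimal medium to an OD of 1, and crosslinked with 0.2% formaldehyde. WCE RNA was depleted of ribosomal RNA and sequenced as 75-nt paired-end reads. Each strain was sampled as a biological duplicate, and anything else that differed between the strains or their cultures cannot be told apart from the tag.

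Mmi1 is a YTH-family RNA-binding protein that recognises meiotic transcripts during mitotic growth and directs them to the nuclear exosome. Mei2 is the RNA-binding protein that starts meiosis and counteracts Mmi1, partly through the non-coding RNA meiRNA, the product of sme2. Outside the meiotic programme, S. pombe silences its centromeric repeats, its mating-type region and its subtelomeres by heterochromatin, and it starts sexual differentiation when nitrogen runs out.

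The 4 libraries held between 36449461 and 53709147 counts. TAP-Mmi1 replicate 2 stood apart, with 27.4% of its counts in rRNA against 7.98% to 14.2% in the others, and 0.746% in tRNA against 0.275% to 0.311%. The spread between the TAP-Mmi1 replicates was also the wider one (common dispersion 0.0130, against 0.00188 for GFP-Mmi1). Genes of growing cells were present at like levels in both strains: act1 (actin) lay at 1709.9 and 1572 against 1586 and 1631 CPM (GFP-Mmi1 against TAP-Mmi1), adh1 (alcohol dehydrogenase) at 2718 and 2614 against 2546 and 2695 CPM and cdc2 (the cell cycle kinase) at 62.1 and 66.1 against 66.1 and 66.6 CPM. CPM are read counts scaled by TMM to a common library size of 1000000. Meiotic and spore genes were not absent from these cells: per kilobase of transcript, the mean level over the libraries was 2213 CPM per kb for isp3 (a spore wall protein), 477 for meu10 and 57.3 for mei4, beside 879 for act1. Genes of P cells (map2) and of M cells (mfm1, mam2) were read in every library, as were the M-cell cassette genes mat1-Mc and mat3-Mc, whose reads are shared between copies.

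Of 6805 features tested, 883 (13.0%) were higher and 716 (10.5%) lower with TAP-Mmi1 (edgeR quasi-likelihood test, Benjamini-Hochberg adjusted p under 0.05). For every one of these 1599, both libraries of one strain lay above both of the other. Over all 6805 features, 2418 had both TAP-Mmi1 libraries above both GFP-Mmi1 libraries and 2306 had both below. This separation is thus no further support for the calls. Most differences were small: 64 features (0.940%) were higher and 43 (0.632%) lower by at least 1 on the log2 scale. The counts depended on which libraries set the spread. Without GFP-Mmi1 replicate 1 they were 152 higher and 70 lower, and without GFP-Mmi1 replicate 2 they were 193 and 90. Without TAP-Mmi1 replicate 1 they rose to 1615 and 1499, and without TAP-Mmi1 replicate 2 to 1295 and 1159. With 1 library left out, the spread comes from the other strain's pair, and the lone library is assumed to vary as that pair does. A fit over all 8 libraries, immunoprecipitates included, left 20 and 4. Scaling by library totals in place of TMM moved the median feature from 0.00 to -0.27 and the counts to 174 and 1240, so the share of calls that were higher was 55.2% with TMM and 12.3% with totals. Differences are therefore given relative to the median feature. Of the 179 features examined by name, some of them not called in the main fit, 52 lost their call with library totals and kept their sign. Another, mug8, lost its call with a change of sign (0.24 to -0.027). In bulk RNA, a different number of cells of a type and a different amount of RNA per cell cannot be told apart. Under each of 11 alternative fits, 17 features stayed higher and 4 stayed lower. Among the 17 were SPBPB10D8.01, isp4, SPBC1683.04, gpd3, cnp3, map2, SPAC977.17, rds1, cbm1, bgl2, hsr1, msa1, exg1, pho84 and gpd1, and the 4 were SPBPB2B2.06c, pal2, rpp202 and pho842.

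**Figure D1:**
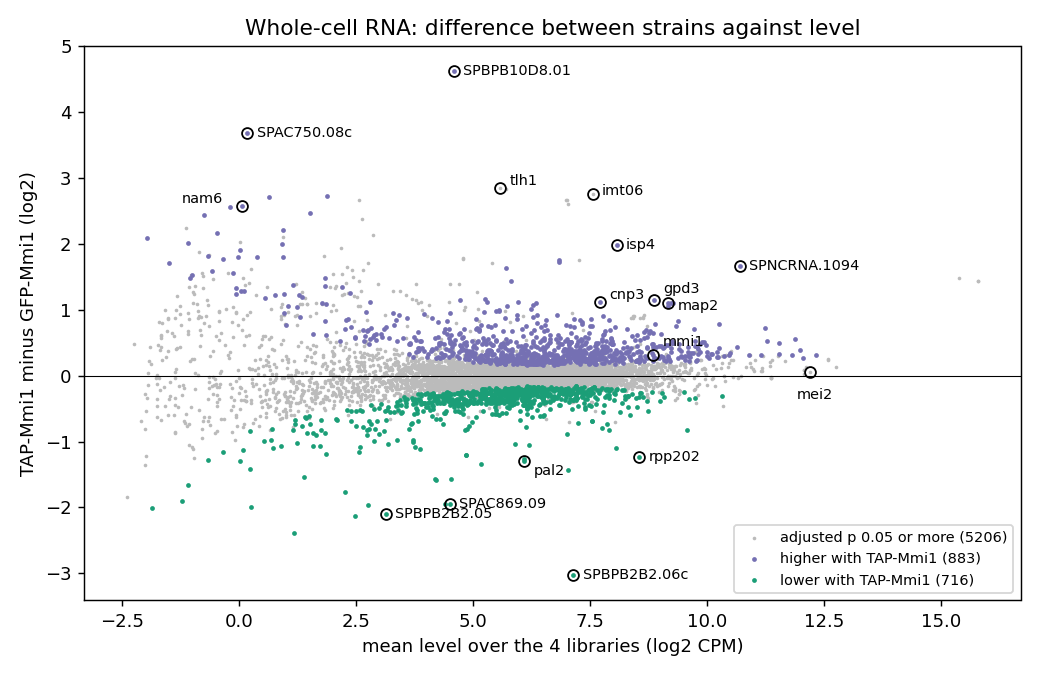
Difference between TAP-Mmi1 and GFP-Mmi1 whole-cell RNA (vertical axis, log2) against mean level over the 4 libraries (horizontal axis, log2 CPM), 1 point for each of the 6805 features tested. Purple and green points are the 883 higher and 716 lower features (edgeR, adjusted p under 0.05), most of them within 1 log2 of zero, with SPBPB10D8.01 at 4.62 and SPBPB2B2.06c at -3.03 the farthest on either side. Circles mark features named in the text.

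Among features past the threshold, the largest difference was that of SPBPB10D8.01, annotated as a cysteine transporter. It lay at 1.70 and 2.02 CPM in the GFP-Mmi1 libraries and 45.4 and 46.2 CPM in the TAP-Mmi1 libraries. The gene was thus low in both GFP-Mmi1 libraries and far higher in both TAP-Mmi1 libraries (4.62 ± 0.10 (SE), adjusted p = 4.3e-06, a 24.7-fold difference). Its convergent neighbour SPBPB10D8.02c, annotated as an arylsulfatase, lay at 1.08 and 0.782 against 6.05 and 6.33 CPM, and SPNCRNA.1307, a non-coding RNA antisense to the latter, at 0.983 and 0.681 against 4.23 and 5.01 CPM. Both rose (2.73 ± 0.20 (SE), adjusted p = 0.0006, and 2.47 ± 0.23 (SE), adjusted p = 0.0014). These features overlap on opposite strands and no strand setting is stated for the counting, so their reads may be shared. The next genes on that chromosome arm, the transporter genes SPBPB10D8.04c to SPBPB10D8.07c, did not pass (0.04 to 0.09). Far from it on chromosome I, sul2, a sulfate transporter gene, rose by less, lying at 60.6 and 59.2 against 95.1 and 98.9 CPM (0.69 ± 0.05 (SE), adjusted p = 0.00056; named after its values were seen).

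Because SPBPB10D8.01 and SPBPB2B2.06c gave the largest difference in each direction, the 250 bases before each annotated start are shown (RefSeq assembly ASM294v3, the first on the forward and the second on the reverse strand, at chrII:80768-81017 and chrII:4471165-4471414). Both windows are intergenic in that annotation.
SPBPB10D8.01: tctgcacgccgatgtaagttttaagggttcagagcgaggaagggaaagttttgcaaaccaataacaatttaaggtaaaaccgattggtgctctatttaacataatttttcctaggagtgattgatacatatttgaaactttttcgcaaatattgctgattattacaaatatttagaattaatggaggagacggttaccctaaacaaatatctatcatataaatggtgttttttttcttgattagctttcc
SPBPB2B2.06c: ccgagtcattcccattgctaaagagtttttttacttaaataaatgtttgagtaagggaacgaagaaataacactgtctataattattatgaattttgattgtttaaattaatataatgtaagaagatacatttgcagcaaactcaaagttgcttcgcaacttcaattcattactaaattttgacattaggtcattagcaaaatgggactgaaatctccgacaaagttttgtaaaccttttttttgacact
Neither promoter window holds TGACGT, the core letters of sites of Atf1-type factors, on either strand, whereas 5.50% of the same windows of 5077 tested mRNA genes do. The GATA-factor letters GATAAG are likewise in neither, and in 10.2% of all windows. The TR box of Ste11, spelled TTCTTTGTT, is in neither, and in 1.62% of all windows, so no letter above is in capitals.

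The largest decrease was that of SPBPB2B2.06c, annotated as a phosphoprotein phosphatase, which lay at 263 and 242 CPM in the GFP-Mmi1 libraries and 32.9 and 29.0 CPM in the TAP-Mmi1 libraries (-3.03 ± 0.08 (SE), adjusted p = 9.4e-06). The 2 strains were far apart, and the replicates of each close together. It sits 68640 nt from the right end of chromosome II, among other genes that fell. Of 14 features tested whose identifiers begin with SPBPB2B2, 11 fell and none rose, beside 10.5% and 13.0% of all features (median -1.13, against 0.00 over all features). In the fit over all 8 libraries 1 of the 14 fell, with the median at -1.14. All 14 had both TAP-Mmi1 libraries below both GFP-Mmi1 libraries, and the number that fell was 7 and 8 without GFP-Mmi1 replicate 1 and 2. Over all 6805 features, 2306 likewise had both TAP-Mmi1 libraries below both GFP-Mmi1 libraries. This run of genes was chosen after its values were seen. It includes the galactose genes, which convert galactose to UDP-glucose: gal1 (galactokinase) lay at 101 and 97.0 CPM in the GFP-Mmi1 libraries and 52.3 and 43.2 CPM in the TAP-Mmi1 libraries (-1.05 ± 0.09 (SE), adjusted p = 0.0021), and gal7 (the uridylyltransferase) at 16.8 and 17.9 against 9.62 and 8.06 CPM (-0.97 ± 0.11 (SE), adjusted p = 0.0023). Counts of gal10 (the epimerase) and of tgd1 on the opposite strand were nearly the same in each library, 40.6 and 39.5 against 17.8 and 16.9 CPM and 41.0 and 40.0 against 17.9 and 17.1 CPM, so their falls (-1.21 and -1.21) are 1 observation. SPBPB2B2.05, a glutamine amidotransferase family gene, fell from 15.1 and 13.7 to 3.42 and 3.25 CPM (-2.10 ± 0.12 (SE), adjusted p = 0.00018). The sterol deacetylase gene say1 lay at 4.25 and 3.58 against 1.33 and 1.35 CPM (-1.54 ± 0.19 (SE), adjusted p = 0.0031, and 0.057 without GFP-Mmi1 replicate 1).

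**Figure D2:**
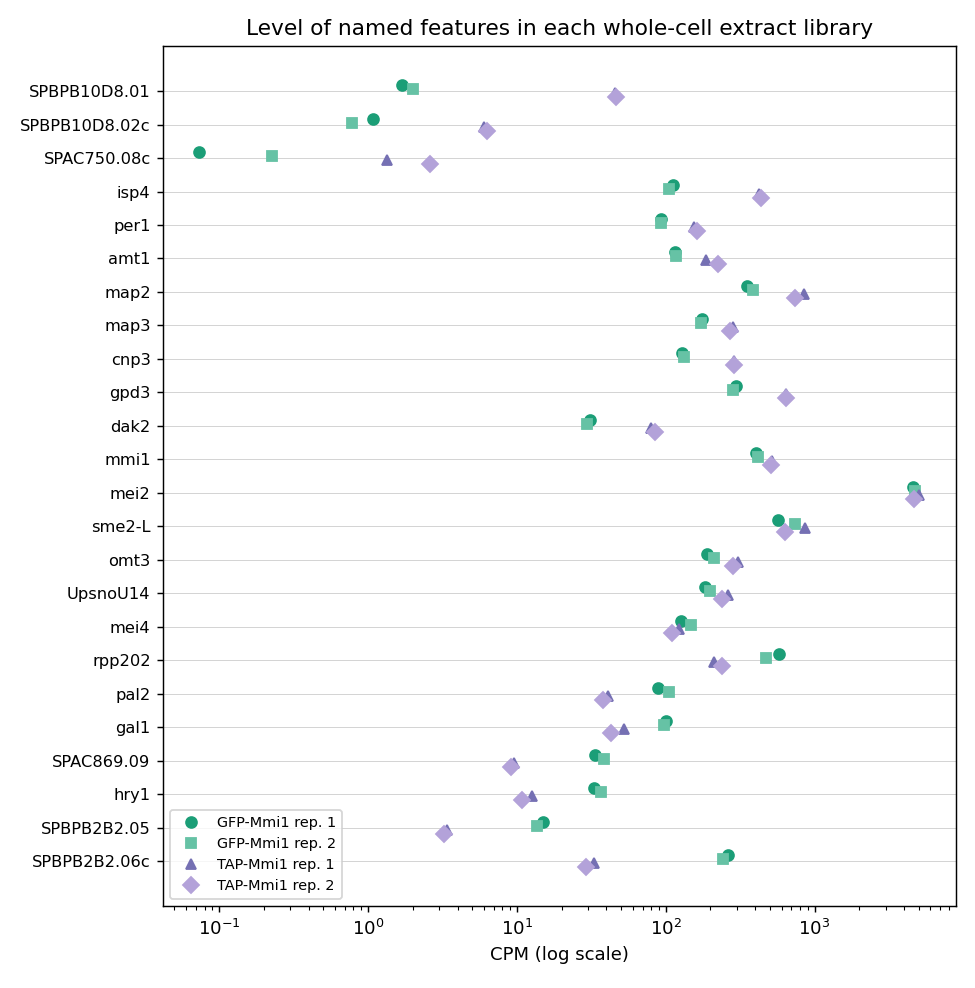
Level of 24 named features in each of the 4 whole-cell extract libraries (horizontal axis, CPM on a log scale), green for GFP-Mmi1 and purple for TAP-Mmi1. SPBPB10D8.01 lies at 1.70 and 2.02 against 45.4 and 46.2 CPM (GFP-Mmi1 against TAP-Mmi1) and SPBPB2B2.06c at 263 and 242 against 32.9 and 29.0 CPM, while the points of mei2 and sme2-L overlap between the strains.

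Genes within 100 kb of an end of chromosome I or II moved in both directions. Of 168 such features 128 could be tested, of which 28 rose and 28 fell, beside 13.0% and 10.5% of all features, with a median of 0.05. The count that rose was 20 and 17 without GFP-Mmi1 replicate 1 and 2, and the count that fell 12 and 13. By end, the counts were as follows: 11 rose and 4 fell of 37 at the left end of chromosome I, 10 and 8 of 36 at its right end, 4 and 3 of 30 at the left end of chromosome II, and 3 and 13 of 25 at its right end, which holds the SPBPB2B2 genes (median -0.80). The difference between the ends was not tested. Within 50 kb, 5 of 46 rose and 7 fell.

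Close to the ends, large differences were seen at few counts. SPAC750.08c, a malic enzyme gene at the right end of chromosome I, lay at 0.0737 and 0.227 CPM in the GFP-Mmi1 libraries and 1.33 and 2.60 CPM in the TAP-Mmi1 libraries. Both strains were low there, at 3 and 9 counts in the GFP-Mmi1 libraries and 71 and 108 in the TAP-Mmi1 libraries (3.68 ± 0.57 (SE), adjusted p = 0.0085; 0.071 without GFP-Mmi1 replicate 1). SPAC212.06c, a helicase-like gene 18071 nt from the left end, lay at 0.442 and 0.328 against 2.42 and 2.67 CPM (2.71 ± 0.26 (SE), adjusted p = 0.0014). The RecQ-type helicase genes tlh1 and tlh2, near-identical genes at the chromosome ends and standard reporters of subtelomeric silencing, are named here after their values were seen. They lay at 5.63 and 17.5 CPM in the GFP-Mmi1 libraries and 81.3 and 85.1 CPM in the TAP-Mmi1 libraries for tlh1 and 6.80 and 18.7 CPM in the GFP-Mmi1 libraries and 88.7 and 92.6 CPM in the TAP-Mmi1 libraries for tlh2. Both were far higher in each TAP-Mmi1 library, but the GFP-Mmi1 replicates lay far apart from each other and neither gene passed the threshold (2.85 ± 0.67 (SE), adjusted p = 0.11 for tlh1; 2.83 ± 0.61 (SE), adjusted p = 0.097 for tlh2). In the fit over all 8 libraries tlh2 passed (adjusted p = 0.038) and tlh1 did not (0.054). Both passed without GFP-Mmi1 replicate 1, without GFP-Mmi1 replicate 2 and without TAP-Mmi1 replicate 1, and neither without TAP-Mmi1 replicate 2 (tlh1 0.27, tlh2 0.25). As reads may be assigned to either copy, these are 1 observation.

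Further in, the left end of chromosome I held dak2 (dihydroxyacetone kinase), at 30.9 and 29.7 CPM in the GFP-Mmi1 libraries and 79.4 and 84.3 CPM in the TAP-Mmi1 libraries (1.43 ± 0.06 (SE), adjusted p = 8.5e-05), and the overlapping SPAC977.17, a MIP-superfamily channel gene, at 39.6 and 38.5 against 82.2 and 86.9 CPM (1.11 ± 0.05 (SE), adjusted p = 0.00015). The right end of chromosome I held genes that fell. SPAC869.09, of the Con-6 family, lay at 33.7 and 38.6 CPM in the GFP-Mmi1 libraries and 9.60 and 9.20 CPM in the TAP-Mmi1 libraries (-1.94 ± 0.09 (SE), adjusted p = 0.00012), and the antisense SPNCRNA.1093, with nearly the same counts, at 30.9 and 36.7 against 8.78 and 8.79 CPM. Nearby, hry1 (an HHE-domain protein) lay at 32.8 and 36.8 against 12.6 and 10.8 CPM (-1.56 ± 0.10 (SE), adjusted p = 0.00035), whereas sul2 between them and the end rose. Features that rose and features that fell were thus interspersed on that arm. SPAC186.02c, a hydroxyacid dehydrogenase gene at 48173 nt, fell as well (9.95 and 11.7 against 2.54 and 3.06 CPM; -1.96 ± 0.16 (SE), adjusted p = 0.00077).

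**Figure D3:**
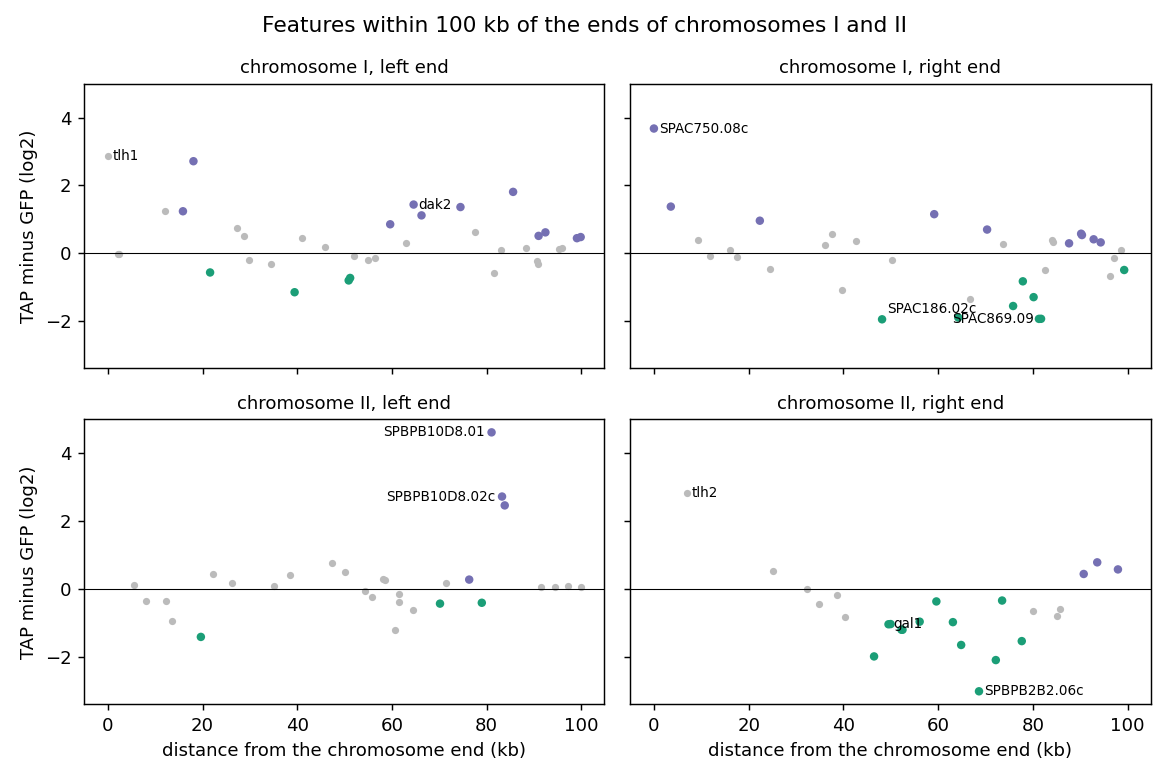
Difference between TAP-Mmi1 and GFP-Mmi1 (vertical axis, log2) against distance from the chromosome end (horizontal axis, kb) for the 128 tested features within 100 kb of the ends of chromosomes I and II, 1 panel for each end. Purple points rose, green points fell (edgeR, adjusted p under 0.05) and grey points did not pass; at the right end of chromosome II 13 of 25 features are green, and at its left end SPBPB10D8.01 and its neighbours stand alone near the top.

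Of 24 features annotated as centromeric lncRNA or as centromere borders, 16 could be tested, of which 10 rose and 1 fell (against 13.0% and 10.5% of all features; median 1.28). This group was formed from the annotation after values had been seen, and all its members were rare: summed over the group, the libraries held 8.70 and 8.27 CPM with GFP-Mmi1 and 19.0 and 18.8 CPM with TAP-Mmi1. The sums did not overlap between strains. The increases were on chromosome II (7 of 9) and chromosome I (3 of 6). The 1 feature tested on chromosome III, SPNCRNA.485, lay at 0.319 and 0.202 against 0.207 and 0.313 CPM.

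Among them, nam6 lay at 0.147 and 0.404 CPM in the GFP-Mmi1 libraries and 1.54 and 1.78 CPM in the TAP-Mmi1 libraries (2.58 ± 0.41 (SE), adjusted p = 0.0072), SPNCRNA.362 at 0.786 and 0.631 against 3.14 and 2.50 CPM (1.99 ± 0.24 (SE), adjusted p = 0.003) and SPNCRNA.231 at 0.270 and 0.202 against 1.07 and 1.06 CPM (2.16 ± 0.33 (SE), adjusted p = 0.0063). Beside them on chromosome II, SPNCRNA.364 and SPNCRNA.365 did not pass (-0.46 and -0.81). On chromosome I, the border RNA IRC1-L fell (0.762 and 0.958 against 0.282 and 0.433 CPM; -1.28 ± 0.35 (SE), adjusted p = 0.041; 0.18 and 0.27 without GFP-Mmi1 replicate 1 and 2). With these low counts the calls were fragile: 1 and 2 rose without GFP-Mmi1 replicate 1 and 2, while the medians stayed at 1.39 and 1.21. The repeats are near-identical, so reads may be shared among the members. Of 3 annotated mating-type region RNAs 2 could be tested and both rose: SPNCRNA.390 lay at 0.270 and 0.177 CPM in the GFP-Mmi1 libraries and 1.47 and 1.20 CPM in the TAP-Mmi1 libraries (2.57 ± 0.34 (SE), adjusted p = 0.0042, 0.052 without GFP-Mmi1 replicate 2) and SPNCRNA.389 at 0.123 and 0.202 against 0.808 and 0.987 CPM (2.44 ± 0.39 (SE), adjusted p = 0.0075; 0.098 and 0.056 without GFP-Mmi1 replicate 1 and 2). Beside the same region, rpp202, which encodes the ribosomal stalk protein P2, fell from 581 and 472 to 209.9 and 239.6 CPM (-1.23 ± 0.12 (SE), adjusted p = 0.0033).

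The gene cnp3, which encodes a centromere protein, had 1 of the 5 smallest p-values. It lay at 129.7 and 133 CPM in the GFP-Mmi1 libraries and 287 and 286 CPM in the TAP-Mmi1 libraries (1.12 ± 0.05 (SE), adjusted p = 0.00012), and abp2, an ARS-binding protein gene nearby on chromosome II, rose as well (125 and 135 against 231 and 240.3 CPM; 0.86 ± 0.06 (SE), adjusted p = 0.00042; named after its values were seen).

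The tagged genes themselves were little apart. Transcripts of mmi1 were slightly higher with the TAP tag, at 407 and 417 CPM in the GFP-Mmi1 libraries and 520.2 and 507 CPM in the TAP-Mmi1 libraries (0.32 ± 0.06 (SE), adjusted p = 0.011). The groups did not overlap, but the call was lost with either GFP-Mmi1 library left out (adjusted p = 0.14 and 0.11) and with library totals. Transcripts of mei2, overexpressed in both strains, lay at 4597 and 4708 CPM in the GFP-Mmi1 libraries and 5069 and 4652 CPM in the TAP-Mmi1 libraries and overlapped between strains (0.06 ± 0.08 (SE), adjusted p = 0.58). The nmt1 gene, whose promoter drove FLAG-Mei2, was at 5893 and 5355 against 6908 and 6432 CPM (0.25 ± 0.09 (SE), adjusted p = 0.084). Tagged Mmi1 was under nmt41, which the study describes as mild, against a strong nmt1. Tag sequences are not among the features, so what was counted are the gene bodies.

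Of 15 tested features around Mmi1 and Mei2, 4 rose and 1 fell (against 13.0% and 10.5% of all features, median 0.17). With library totals 0 rose and 1 fell. Fewer were called with either GFP-Mmi1 library left out, where the medians were 0.03 and 0.22 without replicate 1 and 2. The meiRNA feature sme2-L overlapped between strains (564 and 741 against 857 and 633 CPM; 0.19 ± 0.22 (SE), adjusted p = 0.57), as did the shorter sme2-S, which is nested in it (0.21). The lncRNA omt3 lay at 188 and 211 CPM in the GFP-Mmi1 libraries and 305 and 285 CPM in the TAP-Mmi1 libraries (0.56 ± 0.07 (SE), adjusted p = 0.0035; 0.051 without GFP-Mmi1 replicate 1). The lncRNA upstream of snoU14, listed as UpsnoU14 and named mamRNA in the study, lay at 184 and 198 against 261 and 237 CPM (0.39 ± 0.07 (SE), adjusted p = 0.01; 0.12 and 0.057 without GFP-Mmi1 replicate 1 and 2), and snoU14 itself did not pass (0.56 ± 0.22 (SE), adjusted p = 0.14). Upstream of Mei2, pat1, the kinase that inhibits it, rose (322 and 330.1 against 479 and 493 CPM; 0.58 ± 0.06 (SE), adjusted p = 0.0016), and mei3, which encodes the inhibitor of Pat1, fell (25.9 and 24.4 against 17.7 and 16.3 CPM; -0.56 ± 0.08 (SE), adjusted p = 0.0047; 0.074 without GFP-Mmi1 replicate 1).

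Meiotic mRNAs that Mmi1 is known to eliminate showed no common direction. Of 11 such mRNAs, 3 rose and 1 fell (against 13.0% and 10.5% of all features, median 0.04). With library totals none rose and 2 fell, mei4 among them (-0.50), with the median at -0.23. The calls were lost with either GFP-Mmi1 library left out, where the medians were -0.04 and 0.13 without replicate 1 and 2. The forkhead transcription factor gene mei4 lay at 126 and 148 CPM in the GFP-Mmi1 libraries and 122 and 111 CPM in the TAP-Mmi1 libraries, both TAP-Mmi1 values lying below both GFP-Mmi1 values without passing the threshold (-0.24 ± 0.09 (SE), adjusted p = 0.11). The dynactin gene ssm4 lay at 55.2 and 64.6 against 58.1 and 54.9 CPM and the cortical dynein anchor num1, also called mcp5, at 227 and 257 against 262 and 236 CPM; both overlapped between strains (adjusted p = 0.48 and 0.73). The largest member difference was that of spo5, a meiotic RNA-binding protein gene, at 787 and 907 against 1262 and 1076 CPM (0.47 ± 0.11 (SE), adjusted p = 0.025; 0.18 and 0.065 without GFP-Mmi1 replicate 1 and 2).

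Of 18 sporulation and spore wall genes, 1 rose and 6 fell (against 13.0% and 10.5% of all features; median -0.16); without GFP-Mmi1 replicate 1 and 2 the number that fell was 1 and 0, and without TAP-Mmi1 replicate 1 it was 10. Examples are meu14, which acts in forespore membrane closure (102 and 107 against 76.1 and 60.5 CPM; -0.61 ± 0.11 (SE), adjusted p = 0.02; covered by an antisense RNA), the meiotic septin genes spn5 (321 and 348 against 271 and 231 CPM; -0.42 ± 0.09 (SE), adjusted p = 0.02) and spn6 (-0.37 ± 0.06 (SE), adjusted p = 0.0078), and spo2, of the spore-forming spindle pole body (-0.40 ± 0.06 (SE), adjusted p = 0.0072). The 1 that rose was spo5. Of 19 recombination and cohesion genes, 2 rose and 1 fell (against 13.0% and 10.5% of all features, median -0.09). The rises were those of dmc1 (the meiotic strand exchange protein, 359 and 397 against 529.6 and 527 CPM, 0.48 ± 0.07 (SE), adjusted p = 0.005) and sgo1 (shugoshin, 0.37 ± 0.09 (SE), adjusted p = 0.024). The fall was that of rec6 (a meiotic double-strand break protein, -0.31 ± 0.08 (SE), adjusted p = 0.033). Without GFP-Mmi1 replicate 1 none of the 19 was called, and without replicate 2 only dmc1. With library totals 7 of the 19 fell, and without TAP-Mmi1 replicate 1, 9. Of 8 genes of horsetail movement and telomere clustering, 0 rose and 2 fell (against 13.0% and 10.5% of all features, median -0.07). The 2 were the dynein light chain gene dlc1 (-0.45 ± 0.06 (SE), adjusted p = 0.0033) and bqt1 (-0.42 ± 0.10 (SE), adjusted p = 0.029). Without GFP-Mmi1 replicate 1 neither was called (adjusted p = 0.058 and 0.17), and without replicate 2 bqt1 was not (0.18).

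Of 4 mating genes of P cells, 3 rose, and 3 rose with any 1 library left out (against 13.0% and 10.5% of all features; median 0.69). The P-factor pheromone gene map2 lay at 352 and 385 CPM in the GFP-Mmi1 libraries and 843 and 737 CPM in the TAP-Mmi1 libraries (1.10 ± 0.09 (SE), adjusted p = 0.00074). The M-factor receptor gene map3 lay at 174 and 173 against 285 and 269 CPM (0.67 ± 0.05 (SE), adjusted p = 0.00077) and the adhesin gene map4 at 591 and 689 against 1049 and 1038 CPM (0.71 ± 0.09 (SE), adjusted p = 0.003). The protease gene sxa1 did not pass (400.0 and 378 against 432 and 423 CPM; 0.14 ± 0.06 (SE), adjusted p = 0.14). Summed, the 4 P-cell genes lay at 1517 and 1625 against 2608 and 2467 CPM and the M-cell genes at 1593 and 1615 against 1978 and 1962 CPM. With library totals only map2 passed.

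Of 9 genes of M cells, 4 rose and 1 fell (against 13.0% and 10.5% of all features; median 0.14). The 3 M-factor precursor genes went separate ways, with mfm3 at 23.6 and 27.4 against 40.7 and 43.9 CPM (0.73 ± 0.09 (SE), adjusted p = 0.0028), mfm1 at 193 and 185 against 206 and 212 CPM (0.14 ± 0.05 (SE), adjusted p = 0.085) and mfm2 at 165 and 155 against 133 and 115 CPM (-0.37 ± 0.08 (SE), adjusted p = 0.02). The sexual agglutinin gene mam3 and the protease gene sxa2 rose (0.49 and 0.44), while the P-factor receptor gene mam2 lay at 159 and 148 against 175 and 161 CPM (adjusted p = 0.17). The reads of mfm3 may be shared with an antisense RNA that covers it. With either GFP-Mmi1 library left out mfm2 was not called. Without GFP-Mmi1 replicate 1, 1 M-cell gene rose, and without replicate 2, 3.

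Of 14 genes of pheromone response and sexual differentiation, 6 rose and none fell (against 13.0% and 10.5% of all features, median 0.16). With library totals none rose and 1 fell (median -0.11). Most of the calls were lost with either GFP-Mmi1 library left out, where the medians were 0.09 and 0.21 without replicate 1 and 2. The master regulator gene ste11 lay at 641 and 672 CPM in the GFP-Mmi1 libraries and 918 and 855 CPM in the TAP-Mmi1 libraries (0.43 ± 0.07 (SE), adjusted p = 0.0072; 0.1 and 0.063 without GFP-Mmi1 replicate 1 and 2), rgs1 (a regulator of G protein signalling) at 330.2 and 350.0 against 527 and 491 CPM (0.58 ± 0.07 (SE), adjusted p = 0.0023) and spk1 (the pheromone MAP kinase) at 242 and 228 against 302 and 303 CPM (0.36 ± 0.06 (SE), adjusted p = 0.0063).

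Of 12 nitrogen-regulated genes, 7 rose and none fell (against 13.0% and 10.5% of all features; median 0.38), and 4 rose without GFP-Mmi1 replicate 1, 4 without replicate 2 and 4 with library totals. The 7 include inv1, the invertase gene (0.42), which is also on the glucose-repressed list. The oligopeptide transporter gene isp4 lay at 112 and 105 CPM in the GFP-Mmi1 libraries and 421 and 438 CPM in the TAP-Mmi1 libraries and was far apart between the strains (1.99 ± 0.06 (SE), adjusted p = 1.5e-05). The amino acid permease gene per1 lay at 93.3 and 93.5 against 155 and 163 CPM (0.77 ± 0.05 (SE), adjusted p = 0.00037), isp7 (a 2-oxoglutarate-dependent oxygenase) at 136 and 139.6 against 231 and 234 CPM (0.76 ± 0.05 (SE), adjusted p = 0.00036) and the ammonium transporter gene amt1 at 116 and 118 against 185 and 225 CPM (0.81 ± 0.10 (SE), adjusted p = 0.0045; 0.066 and 0.056 without GFP-Mmi1 replicate 1 and 2). The paralogous ammonium transporter genes amt2 and amt3 did not pass (0.00 and 0.21).

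Among 12 iron-regulated genes 6 rose and none fell (against 13.0% and 10.5% of all features; median 0.23), among them the iron permease and ferroxidase genes fip1 (113 and 109.9 against 151 and 165 CPM; 0.50 ± 0.06 (SE), adjusted p = 0.0028) and fio1 (313 and 303 against 391 and 451 CPM; 0.45 ± 0.08 (SE), adjusted p = 0.0094). With library totals, or without GFP-Mmi1 replicate 1 or 2, the number that rose was 0, 1 and 1. The haem-uptake gene shu1, outside the list, lay at 0.811 and 0.807 against 2.84 and 2.84 CPM (1.81 ± 0.20 (SE), adjusted p = 0.0023). Of the 4 phosphate-regulated genes, pho84 (a phosphate transporter) lay at 894 and 897 CPM in the GFP-Mmi1 libraries and 1448 and 1633 CPM in the TAP-Mmi1 libraries (0.78 ± 0.08 (SE), adjusted p = 0.0017), pho1 (an acid phosphatase) at 745 and 757 against 986 and 1051 CPM (0.44 ± 0.07 (SE), adjusted p = 0.0063) and tgp1 (a glycerophosphodiester transporter), the 1 that fell, at 41.5 and 39.8 against 35.8 and 32.1 CPM (-0.26 ± 0.07 (SE), adjusted p = 0.042). With either GFP-Mmi1 library left out only pho84 was called, and tgp1 was not called by DESeq2. Against pho84, pho842, named after its values were seen, fell from 377 and 349 to 171 and 169 CPM (-1.09 ± 0.06 (SE), adjusted p = 0.00017). Of 8 thiamine-regulated genes 2 rose and 2 fell (against 13.0% and 10.5% of all features, median -0.05). The rises were those of thi2 (thiazole synthesis, 0.50) and car1 (annotated as arginase, which is not a thiamine gene, 0.31). The falls were those of bsu1 (a vitamin B6 carrier, -0.60) and pho4 (a thiamine-repressible phosphatase, -0.34). Of these, only bsu1 was called with either GFP-Mmi1 library left out, and neither rise with library totals. Copper transporter genes ctr4 and ctr5 rose (0.49 and 0.41), and the metallothionein gene zym1 fell (-0.30). With either GFP-Mmi1 library left out none of the copper and zinc list was called, and with library totals none rose.

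The glyceraldehyde-3-phosphate dehydrogenase gene gpd3 lay at 298 and 285 CPM in the GFP-Mmi1 libraries and 638 and 648 CPM in the TAP-Mmi1 libraries (1.14 ± 0.06 (SE), adjusted p = 0.00015), while its paralogue tdh1 rose by less (3700.0 and 3338 against 4485 and 4701 CPM; 0.38 ± 0.08 (SE), adjusted p = 0.019; 0.079 and 0.15 without GFP-Mmi1 replicate 1 and 2). Of 15 glycolysis and fermentation genes 3 rose and none fell (against 13.0% and 10.5% of all features; median 0.20; 1 with either GFP-Mmi1 library left out). The glycerol-3-phosphate dehydrogenase gene gpd1 lay at 517 and 453 against 851 and 779.8 CPM (0.75 ± 0.09 (SE), adjusted p = 0.0024). The glucanase-family genes bgl2 and exg1 and the glycosyl hydrolase family 3 gene SPBC1683.04, named after their values were seen, lay at 50.3 and 50.6 against 105 and 107 CPM, 353 and 349 against 591 and 617 CPM and 27.3 and 23.4 against 80.9 and 76.3 CPM (1.07, 0.78 and 1.63). Of the hexose transporter genes, ght8 and ght1 rose (0.41 and 0.41) and ght6 fell (-0.32). None of these 3 was called with either GFP-Mmi1 library left out, and with library totals neither rise was.

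Of 10 cell surface and regulatory genes of flocculation and adhesion, 5 rose and 1 fell (against 13.0% and 10.5% of all features; median 0.40). The flocculin gene gsf2 lay at 101 and 111 against 171 and 161 CPM (0.65 ± 0.06 (SE), adjusted p = 0.0016) and pfl3 at 102 and 100.1 against 177 and 189 CPM (0.86 ± 0.05 (SE), adjusted p = 0.00034), while pfl5 fell (14.2 and 13.1 against 7.69 and 6.19 CPM; -0.98 ± 0.13 (SE), adjusted p = 0.0042; 0.067 without GFP-Mmi1 replicate 1). Without GFP-Mmi1 replicate 1 and 2, 2 and 3 rose, and without TAP-Mmi1 replicate 2, 9.

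Of 18 general stress genes, 1 rose (gpd1) and 3 fell (against 13.0% and 10.5% of all features; median -0.16). Those that fell were srx1 (sulfiredoxin, -0.37), zym1 (-0.30) and trx2 (a thioredoxin; -0.28), none of them called with either GFP-Mmi1 library left out. Without TAP-Mmi1 replicate 1, 15 stress genes fell, and with library totals 9. Of 16 chaperone genes 6 rose and none fell (against 13.0% and 10.5% of all features, median 0.13), with ssa2 (an Hsp70) at 3129.7 and 2959.7 against 4529.9 and 4447 CPM (0.56 ± 0.07 (SE), adjusted p = 0.0037). With library totals none of the 16 was called. Most of the calls were lost with either GFP-Mmi1 library left out, where the medians were 0.13 and 0.14 without replicate 1 and 2. Cell cycle lists moved little. Of 12 G1/S genes none rose and 3 fell, down to -0.38 (mik1, a mitotic inhibitor kinase), against 13.0% and 10.5% of all features. With either GFP-Mmi1 library left out none of them fell, and DESeq2 called 1 higher. Of 8 cell separation genes 0 passed in edgeR, where 3 had an unadjusted p under 0.05, and DESeq2 called 1. Of 9 histone genes hta1 rose (0.36) and hta2 fell (-0.41), against 13.0% and 10.5% of all features (median -0.05). The H2A genes hta1 and hta2 are near-identical copies. Neither was called without GFP-Mmi1 replicate 1, and hta1 was not without replicate 2.

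Of 141 cytosolic ribosomal protein genes, 22 rose and 7 fell (against 13.0% and 10.5% of all features; median 0.07). The widest were rpp202 (-1.23) and rps1401 (0.73), and without GFP-Mmi1 replicate 1 and 2 the list gave 1 and 1 that rose and 1 and 3 that fell. Without TAP-Mmi1 replicate 1, 67 rose and 15 fell, and without TAP-Mmi1 replicate 2, 30 rose and 30 fell. Each of the 13 Tf2 retrotransposons rose, by 0.31 to 0.39. The copies are near-identical and share reads, so they count as 1 observation; summed, they lay at 1889 and 1980.1 against 2468 and 2473 CPM. None of the 13 was called without GFP-Mmi1 replicate 1, 2 without replicate 2, and none with library totals. Of the genes used as auxotrophic markers, ura4 lay at 25.5 and 25.1 CPM in the GFP-Mmi1 libraries and 38.8 and 44.3 CPM in the TAP-Mmi1 libraries (0.71 ± 0.08 (SE), adjusted p = 0.0023) and leu1 at 178 and 164 against 215 and 226 CPM (0.36 ± 0.06 (SE), adjusted p = 0.0079; 0.057 and 0.097 without GFP-Mmi1 replicate 1 and 2), and the other 4 did not pass. With library totals none of the 6 was called.

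**Figure D4:**
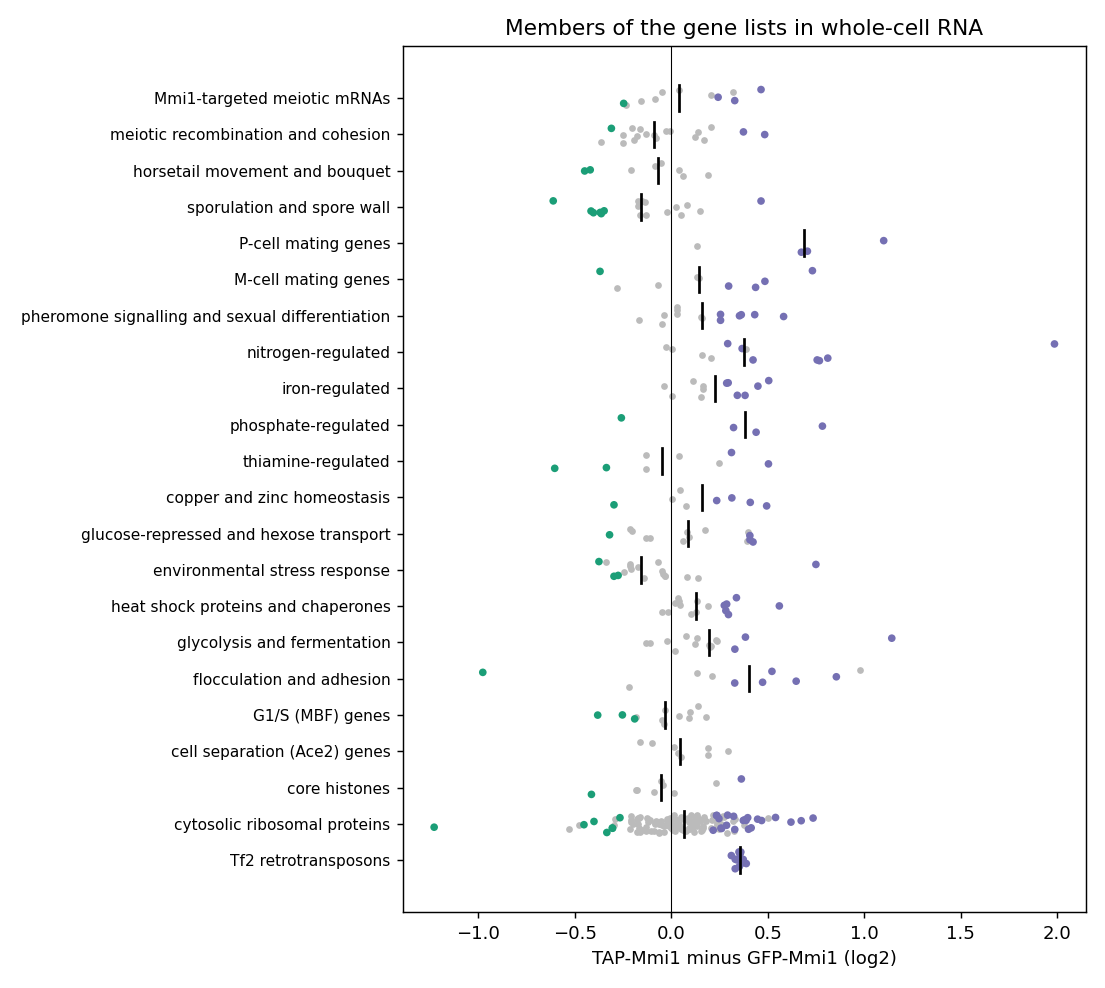
Difference between TAP-Mmi1 and GFP-Mmi1 whole-cell RNA (horizontal axis, log2) for each tested member of 22 gene lists. Purple points rose and green points fell (edgeR, adjusted p under 0.05 over all features), grey points did not pass, points are spread vertically at random within a list, and black bars are list medians, which reach 0.69 for P-cell mating genes and -0.16 for sporulation and spore wall genes.

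Of the 5 RNA classes, transfer RNA was the one whose median stood farthest from 0, at 1.06 over 164 tested genes, with 12 higher and none lower, against 13.0% and 10.5% of all features. With either GFP-Mmi1 library left out, none was called. The library that stood apart held the highest levels. Summed over 171 tRNA genes, the GFP-Mmi1 libraries held 2787 and 2624 CPM, TAP-Mmi1 replicate 1 2775 CPM and TAP-Mmi1 replicate 2 8983 CPM. The total was thus raised in 1 of the 2 TAP-Mmi1 libraries. Aspartate tRNAs made up most of it, at 2143 and 1980 against 1734 and 5913 CPM. Those other than aspartate, methionine and tryptophan tRNAs lay at 463 and 458 against 489 and 1453 CPM. Gene by gene, 101 of the 164 tested had both TAP-Mmi1 libraries above both GFP-Mmi1 libraries, and none had both below. Over all 6805 features these numbers were 2418 and 2306. Without TAP-Mmi1 replicate 2 the tRNA median fell to 0.32, with 42 higher and 17 lower, and without TAP-Mmi1 replicate 1 it was 1.58, with 155 higher. With library totals 54 were higher, and DESeq2 called 35.

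Within the tRNAs, the initiator methionine tRNA differed in both TAP-Mmi1 libraries. It was singled out after its values were seen. Its 4 genes have 1 sequence of 72 bases, shown here beside an elongator methionine tRNA gene, with the annotated intron in capitals, and a tryptophan tRNA gene, since identical copies cannot be told apart by reads within them (RefSeq, ASM294v3; imt06 at chrII:2434303-2434374 on the reverse strand, SPBTRNAMET.04 at chrII:658451-658531 and SPBTRNATRP.02 at chrII:717076-717148 on the forward strand).
imt06: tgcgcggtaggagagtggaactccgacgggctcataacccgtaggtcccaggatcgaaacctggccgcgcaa
SPBTRNAMET.04: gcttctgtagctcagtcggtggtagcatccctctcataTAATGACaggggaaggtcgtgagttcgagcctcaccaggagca
SPBTRNATRP.02: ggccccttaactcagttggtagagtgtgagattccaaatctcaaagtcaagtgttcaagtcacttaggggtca
Genes imt07, SPATRNAMET.01 and SPATRNAMET.03 hold the same letters as imt06, and the 3 tryptophan tRNA genes are identical to each other.

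The 4 initiator genes together took 5.45% and 5.96% of tRNA counts in the GFP-Mmi1 libraries and 18.2% and 16.5% in the TAP-Mmi1 libraries. The 95% Wilson intervals of these shares, which cover counting error only, ran from 5.32% to 6.10% over the GFP-Mmi1 libraries and from 16.4% to 18.4% over the TAP-Mmi1 libraries, and did not overlap between strains. In CPM, imt06 lay at 48.9 and 48.3 CPM in the GFP-Mmi1 libraries and 159 and 498 CPM in the TAP-Mmi1 libraries, so both TAP-Mmi1 libraries were above both GFP-Mmi1 libraries, but they lay far apart from each other and the feature did not pass (2.76 ± 0.81 (SE), adjusted p = 0.15; 4.4e-63 without TAP-Mmi1 replicate 2, where the GFP-Mmi1 pair alone sets the spread). The tryptophan tRNAs behaved alike, at 0.210% and 0.249% of tRNA counts with GFP-Mmi1 and 0.616% and 0.523% with TAP-Mmi1. Elongator methionine tRNAs differed by less, taking 0.829%, 0.902%, 1.05% and 0.968% in the same order, with both TAP-Mmi1 shares above both GFP-Mmi1 shares. Aspartate tRNAs took the largest share, 76.9% and 75.4% with GFP-Mmi1 and 62.5% and 65.8% with TAP-Mmi1.

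**Figure D5:**
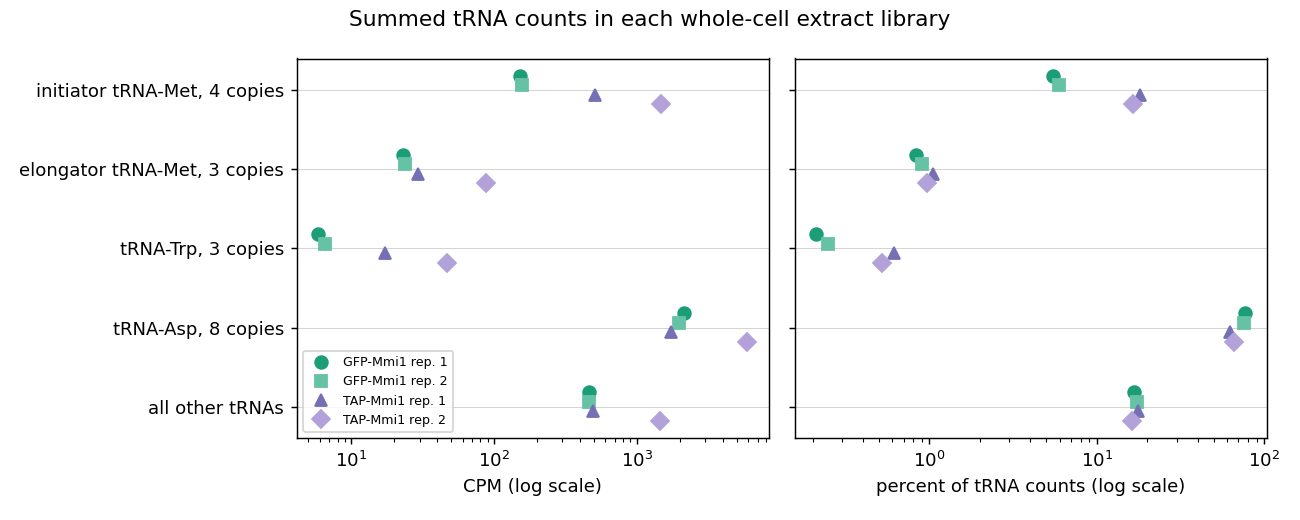
Summed tRNA counts in each of the 4 whole-cell extract libraries, in CPM (left) and as a percentage of all tRNA counts (right), both on log axes. TAP-Mmi1 replicate 2 is higher in CPM for every group shown, whereas as a share of tRNA counts both TAP-Mmi1 libraries lie at 16.5% to 18.2% for the initiator tRNA, above 5.45% to 5.96% in the GFP-Mmi1 libraries.

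Ribosomal RNA was depleted before sequencing. Few rRNA features were called, with 2 higher and 0 lower, against 13.0% and 10.5% of all features. The class median was 0.51, and -0.23 without TAP-Mmi1 replicate 2. Of 29 rRNA features tested, the 5.8S copies SPRRNA.50 and SPRRNA.51 rose (45.7 and 61.4 against 158 and 194 CPM; 1.72 ± 0.20 (SE), adjusted p = 0.018; 0.17 without TAP-Mmi1 replicate 2), and reads may be shared between these copies. Next to the rDNA on chromosome III, the non-coding RNAs SPNCRNA.1094 and SPNCRNA.1095, named after their values were seen, lay at 689.9 and 908 CPM in the GFP-Mmi1 libraries and 2757 and 2321 CPM in the TAP-Mmi1 libraries for the first (1.67 ± 0.16 (SE), adjusted p = 0.0039) and 1709 and 1963 against 3091 and 2970.2 CPM for the second (0.72 ± 0.09 (SE), adjusted p = 0.0028). Of 66 sn/snoRNAs 7 rose and 5 fell (against 13.0% and 10.5% of all features; median 0.25), from snoR54b (1.20) to snoU24 (-1.06), and 14 and 4 with DESeq2; without GFP-Mmi1 replicate 1 and 2, 0 and 3 rose and none fell. The 36 mitochondrial features had no counts in any library.

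The mRNAs that differed also differed in length and base composition. The 658 mRNAs that rose had a median length of 2208.5 nt and a median GC content of 38.3%, the 557 that fell 1402 nt and 35.6%, and all 5078 tested 1778 nt and 36.8%. The hexamer TNAAAC, the core of the sites that Mmi1 binds, occurred at a median of 1.57 per kb of gene in those that rose, 1.63 in those that fell and 1.65 in all mRNAs tested. In the 28 mRNAs that rose by at least 1 log2 the median was 1.81 per kb, and in the 28 that fell by as much 0.951. Their median lengths were 1750 and 1025.5 nt. The part of length, base composition and hexamer density in the differences was not tested. Of the 1599 called features, 433 lay for at least 50% of their length under another listed feature, 421 of them with the partner on the opposite strand, so that the number of separate observations is lower than the number of calls.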

How the data were processed

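Total RNA (WCE) of 2 TAP-Mmi1 and 2 GFP-Mmi1 cultures was analysed, and the 4 immunoprecipitates only in 1 alternative fit. The authors demultiplexed reads with bcl2fastq 2.18.12, trimmed them with cutadapt 1.15, aligned them with Bowtie2 and counted them over features with MulticovBed. The deposited values are raw read counts for 6973 named features, and the strand setting and genome build are not given in the sources used here. The 1 unnamed row (at most 0.0101% of counts) was left out. Positions are from RefSeq ASM294v3, matched by identifier for 6814 features. Of 1729 features with coordinates in the study's tables, 99.2% shared a start or an end with RefSeq.

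Counts were filtered with filterByExpr, scaled by TMM and tested with the edgeR 4.0.16 quasi-likelihood test (R 4.3.3), with Benjamini-Hochberg adjustment over 6805 features. Scripts were tested on simulated data. Alternatives were library totals, no filter, DESeq2 1.42.0, a replicate block, an 8-library fit, leaving out rRNA, other structural RNAs or each library, and other distances from chromosome ends. Examined by name were the 15 highest and 15 lowest differences past the threshold, the 5 smallest p-values, fixed Mmi1 and Mei2 genes, and up to 4 members of each list. Others were named after their values were seen. The members and lists were chosen with earlier results of these data known. P-values weigh the difference between strains against the spread between 2 cultures of each, pooled over both strains and moderated across features.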

Additional observations from a re-analysis of the deposited data

How the results depend on the processing

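Main counts were 883 higher and 716 lower. With library totals they were 174 and 1240, in a fit over all 8 libraries 20 and 4, and with a difference of at least 1 on the log2 scale 64 and 43. Leaving out 1 library gave 152 to 1615 higher and 70 to 1499 lower. DESeq2 gave 888 and 694, no filter 884 and 714, leaving out rRNA 892 and 720, and leaving out rRNA, tRNA and sn/snoRNA, chosen after seeing the data, 988 and 850. Within 50 kb of an end 5 features rose and 7 fell, and within 25 kb 5 and 2. The difference of mug8, 0.24, was -0.027 with library totals. The 2 shared replicate numbers did not pair the samples (correlation of deviations 0.0397), and a replicate block gave 730 higher and 529 lower. With 2 libraries a strain and TAP-Mmi1 replicate 2 apart from the rest, the spread rests on few values, and low counts limit the precision of rare RNAs. The causes of these shifts were not tested.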
